A study of Homo sapiens with 15 samples.

Results

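The 36 genes described here encode aminoacyl-tRNA synthetases, and they were chosen by symbol from the 58219 rows of the deposited gene count table. Symbols ending in 2 name the 16 enzymes of the mitochondrial class. The remaining 20 work in the cytosol or, as GARS1 and KARS1 do, in both compartments. Each synthetase joins an amino acid to its own transfer RNA, so that the ribosome can read the genetic code. Mitochondria have their own ribosomes and transfer RNAs, and most of their synthetases come from separate nuclear genes and are imported. Many cytosolic synthetase genes are known targets of ATF4, the transcription factor of the amino acid response, which is translated when eIF2 is phosphorylated under amino acid shortage or other stress.

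The study exposed BEAS-2B cells, an immortalized human bronchial epithelial line grown in serum-free medium on collagen, to PM2.5, the fine fraction of airborne particulate matter, extracted in water from filters. One set of cultures received vehicle control, 1 µg/cm2 or 30 µg/cm2 of PM2.5 once and was collected after 24 h. The other received vehicle control or 1 µg/cm2 each day in a 7 day protocol, with washes between doses and a lower initial plating density. Each of these 5 groups holds 3 libraries of poly-A RNA, 1 from each of 3 independent experiments, and the experiment number names the batch. BEAS-2B is 1 line, so the spread is between experiments and not between donors.

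Depth ran from 21460981 to 34724765 counts per library. Of the 36 members, 35 passed the filter on low counts, and each of these had at least 108 counts in every library. The exception was SARS2, the mitochondrial seryl enzyme, with 0 counts in 14 libraries and 1 count in 1 of the repeatedly exposed cultures. A floor of 3 counts corresponds to between 0.0864 and 0.140 CPM, counts scaled to a common library total, for counting error only. In the annotation, 57.0% of the exon bases of SARS2 lie under exons of other genes, mostly of a same-strand gene that was also at 0 counts, so absence of its RNA cannot be told apart from reads left unassigned. A gene was called when its adjusted p (edgeR's quasi-likelihood test, Benjamini-Hochberg over 17599 tested genes) was below 0.05 and its log2 fold-change at least 0.6 in size. Levels are CPM scaled by TMM, edgeR's correction for library composition.

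The 24-h libraries of experiment 2 stood apart from those of experiments 1 and 3 in several members already in the control, so the counts of called members in contrasts that use them are also given without them. The line carried its epithelial markers, with the summed CPM of 8 keratin, cadherin and related genes between 3673 and 4189 in the 24-h controls and between 1576 and 2635 at 30 µg/cm2. Markers of endothelium and leukocytes, 3 each, summed to at most 0.345 CPM in any library. Of the 5 fibroblast markers, 1 fell at 30 µg/cm2 and the sum stayed between 58.3 and 127 CPM in all 15 libraries. Of the 8 epithelial markers 5 fell at 30 µg/cm2, where 747 of 17599 tested genes were called lower. After repeated exposure 2 of the 8 fell, where 22 genes were called lower. Their summed CPM was between 1963 and 2236 there, against 3003 to 3580 in the repeated controls. The part of these falls in the synthetase results was not tested. In these bulk libraries fewer cells of a type and less RNA per cell cannot be told apart.

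RefSeq promoter windows of build GRCh38.p14, 250 bases before to 50 bases after a start site, were searched for the CARE motif TGATGNAA on both strands. CARE is the C/EBP-ATF response element, which ATF4 dimers are known to bind, and the motifs were chosen after the expression values were seen. Of the 36 members, 30 had a window. The CARE motif was in 7 of the 16 cytosolic genes with a window (43.8%) and in 1 of the 14 mitochondrial genes (7.14%), against 4.46% of 27305 genes and 3.62% of 35116 windows. The 8 matches are shown because the classes differ in how often they hold the motif. Each line is 30 bases in the direction of the gene, with the motif in capitals.
GARS1: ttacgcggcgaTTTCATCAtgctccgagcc
IARS1: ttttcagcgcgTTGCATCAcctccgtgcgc
MARS1: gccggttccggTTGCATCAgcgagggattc
NARS1: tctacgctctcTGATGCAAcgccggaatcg
CARS1: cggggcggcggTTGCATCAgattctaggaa
AARS1: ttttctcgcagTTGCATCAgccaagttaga
TARS1: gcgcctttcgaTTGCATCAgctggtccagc
YARS2: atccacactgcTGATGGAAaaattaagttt

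In 5 of the 7 cytosolic genes the match lay on the strand opposite to the gene with the letters TTGCATCA and in NARS1 it lay on the same strand as TGATGCAA, so 6 of 7 held one and the same 8 bases, TGATGCAA. GARS1 held TGATGAAA, and the mitochondrial YARS2 held TGATGGAA 197 bases before its start. The matches of CARS1, MARS1, IARS1 and GARS1 began 2, 4, 13 and 33 bases before the start site, that of AARS1 187 bases before it, and those of TARS1 and NARS1 2 and 14 bases after it. On the plus strand the 30 bases lie at chr7:30594834-30594863 for GARS1, chr12:57488053-57488082 for MARS1 and chr5:33440956-33440985 for TARS1. On the minus strand they lie at chr9:92293692-92293721 for IARS1, chr18:57621804-57621833 for NARS1, chr11:3057407-3057436 for CARS1, chr16:70289675-70289704 for AARS1 and chr12:32756076-32756105 for YARS2. A match is a description of the letters, not of binding.

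WARS1, which had the largest fold-change of all members, held no CARE motif in these windows. It held the antioxidant response element TGACNNNGC, the motif bound by NRF2, which was in 4 of 16 cytosolic and 2 of 14 mitochondrial genes, against 16.1% of all genes and 13.3% of all windows. Of the cytosolic genes with a window, 2 of the 7 called higher at 30 µg/cm2 held it (GARS1 and WARS1). It was also in 2 of the 9 not called (KARS1 and TARS1). The mitochondrial holders, RARS2 and NARS2, were not called. GARS1 and WARS1 held the element at 92 and 41 bases before their starts (chr7:30594775-30594804, plus strand, and chr14:100376350-100376379, minus strand). These 2 stretches are shown only because they belong to the 2 members with the largest fold-changes, with the element in capitals.
WARS1: cgaacagccaaTGACGGCGCcgtcgggccg
GARS1: ggcgacccggcGCCGCGTCAcgcggtggtg

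The 2 classes differed in level before any treatment. Per kb of exon, the 24-h control mean had a median of 53.0 CPM over the 20 cytosolic members and of 11.2 CPM over the 15 tested mitochondrial members. AARS1 was the highest cytosolic member at 99.97 CPM per kb and TARS3, a threonyl enzyme close to TARS1, the lowest at 1.61. In the mitochondrial class IARS2 led with 59.3 CPM per kb, and VARS2 was lowest at 3.48. Lengths are the gene lengths in the deposited table.

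After 24 h with 30 µg/cm2 of PM2.5, 9 of the 20 cytosolic synthetases rose and none fell, while none of the 15 mitochondrial synthetases passed the test in either direction. The cytosolic genes that rose were WARS1, GARS1, YARS1, MARS1, SARS1, IARS1, LARS1, EPRS1 and NARS1, with log2 fold-changes from 0.60 to 1.34. Across all tested genes 8.07% were called, and 3.82% were called higher. The fit shares a common spread per gene over all groups, and fewer cytosolic members were called when only the groups compared were fitted. The median log2 fold-change was 0.55 over the cytosolic members, 0.09 over the mitochondrial members and 0.03 over all tested genes. Within experiments 1, 2 and 3 the cytosolic median was 0.59, 0.68 and 0.61 (mean 0.63 ± 0.05, SD, n = 3), and the mitochondrial median was -0.05, 0.33 and -0.17 (mean 0.04 ± 0.26).

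**Figure D1:**
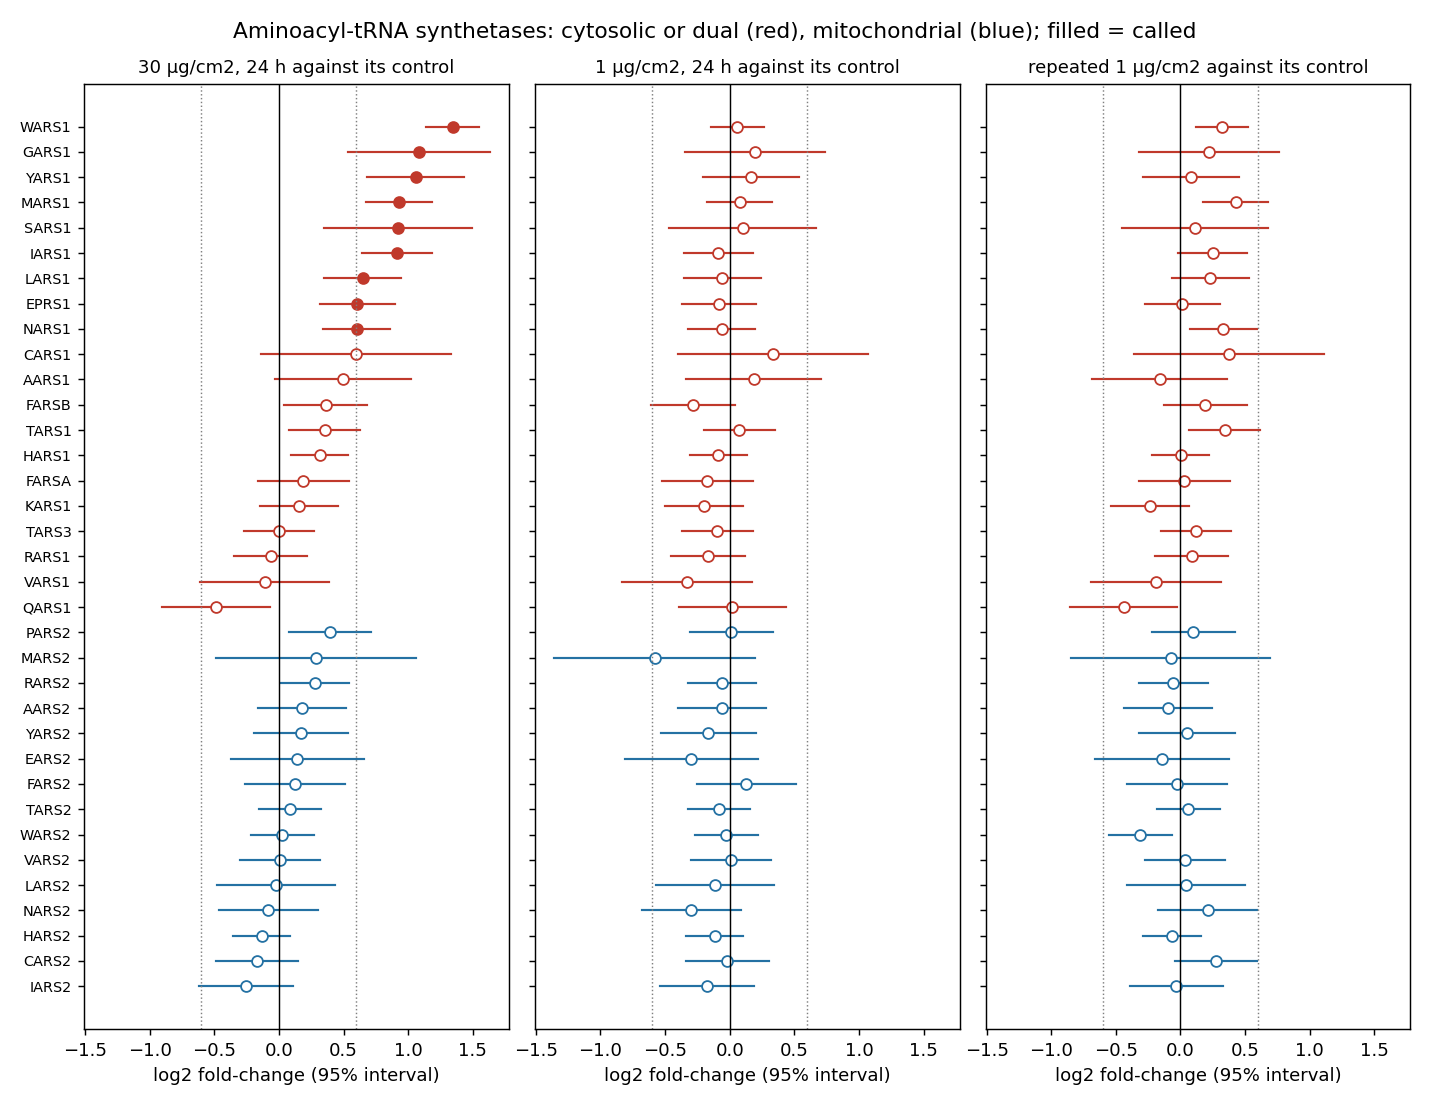
Log2 fold-change (x axis) of each tested synthetase (y axis) against its own control after 30 µg/cm2, after 1 µg/cm2 and after repeated 1 µg/cm2, with 95% intervals from the fit. Red marks cytosolic or dual and blue mitochondrial members, filled points are called, and dotted lines mark log2 fold-changes of 0.6 in size; the 9 filled points are all red and in the 30 µg/cm2 panel.

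WARS1 (14:100333788-100376805, minus strand), the tryptophanyl enzyme, had 131, 119 and 136 CPM in the 24-h controls of experiments 1 to 3 and 324, 329 and 329 CPM at 30 µg/cm2. Every treated library was thus far above every control library, with little spread within either group. The log2 fold-change was 1.34 (adjusted p = 5.62e-06, SE 0.10), a fold of 2.54. Its mitochondrial counterpart WARS2 had 19.45, 18.7 and 21.5 CPM in the controls and 19.8, 21.9 and 19.1 CPM at 30 µg/cm2, 2 groups that overlapped. The 95% interval of the WARS2 log2 fold-change ran from -0.22 to 0.27. Exons of other genes on the other strand cover 10.6% of the WARS1 exon bases.

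GARS1 (7:30594681-30634033), the glycyl enzyme of both compartments, had 223, 382 and 243 CPM in the controls and 568, 630 and 599 CPM at 30 µg/cm2. The control of experiment 2 was the highest, but still below each treated library. The log2 fold-change was 1.08 (adjusted p = 0.0148, SE 0.25). YARS1, the tyrosyl enzyme, had 188, 257 and 213 CPM in the controls and 438, 480 and 451 CPM at 30 µg/cm2, a log2 fold-change of 1.06 (adjusted p = 0.00166, SE 0.17) with no overlap. Its mitochondrial counterpart YARS2 had 51.2, 30.9 and 53.9 CPM against 48.4, 51.9 and 53.1 CPM, so that only experiment 2 moved.

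SARS1, the seryl enzyme, which also charges the transfer RNA of selenocysteine, had 218, 393 and 248 CPM in the controls and 489, 639 and 502 CPM at 30 µg/cm2 (log2 fold-change 0.92, adjusted p = 0.0414, SE 0.27). NARS1, the asparaginyl enzyme, went from 323, 304 and 342 CPM to 508, 426 and 537 CPM (log2 fold-change 0.60, adjusted p = 0.00606, SE 0.12). In both genes the groups did not overlap. Both calls were close to a limit, SARS1 to that on p and NARS1 to that on fold: SARS1 lost its call without any 1 of 5 of the 6 libraries compared (adjusted p 0.0788 to 0.157 without control 1 or 3 or any 30 µg/cm2 library), and NARS1 fell below the fold limit without control 1 (0.59), control 2 (0.56), or the 30 µg/cm2 library of experiment 1 (0.56) or 3 (0.53). GARS1 lost its call without control 1 (0.92, adjusted p = 0.0738) or control 3 (0.97, adjusted p = 0.0743).

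**Figure D2:**
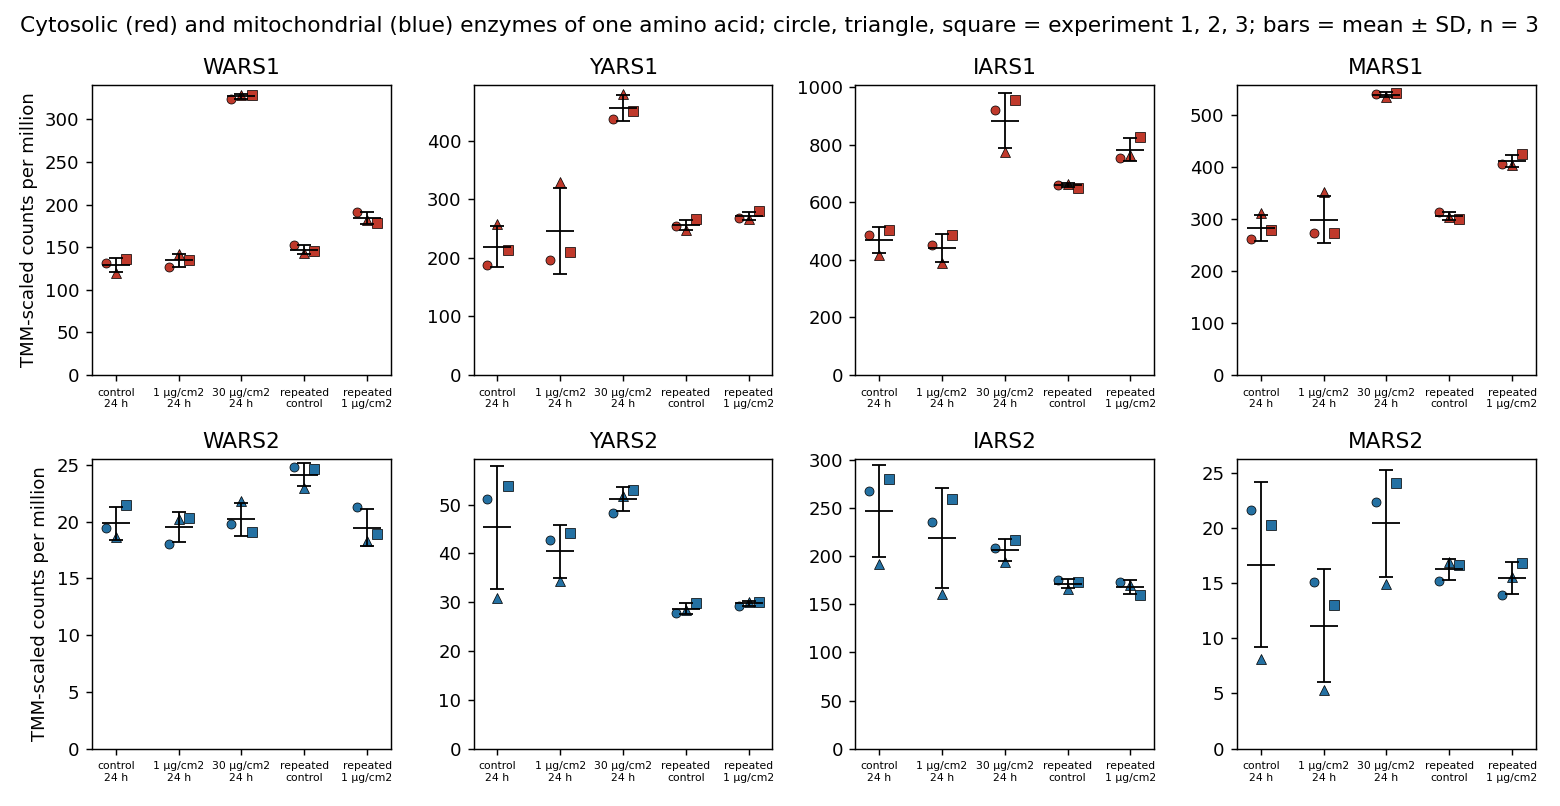
TMM-scaled CPM (y axis, from 0) in every library of the 5 groups for 4 cytosolic enzymes (top, red) and the mitochondrial enzymes of the same amino acids (bottom, blue). Circle, triangle and square are experiments 1, 2 and 3 of a protocol, and bars are mean ± SD (n = 3). WARS1, YARS1, IARS1 and MARS1 stand above all other 24-h libraries at 30 µg/cm2, and their counterparts do not.

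Several cytosolic synthetases sit in the multisynthetase complex, an assembly that holds the enzymes for glutamate and proline (EPRS1), isoleucine, leucine, methionine, glutamine, arginine and lysine on 3 scaffold proteins. Of the 7 members of this complex described here, 4 rose at 30 µg/cm2: IARS1, MARS1, LARS1 and EPRS1. The other 3, KARS1, RARS1 and QARS1, did not pass the test, at log2 fold-changes of 0.15, -0.06 and -0.49. Of the 13 cytosolic members outside the complex, 5 rose. The median log2 fold-change was 0.61 inside and 0.50 outside it.

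IARS1 had 486, 418 and 503 CPM in the controls and 920, 775 and 955 CPM at 30 µg/cm2, a log2 fold-change of 0.91 (adjusted p = 0.000429, SE 0.13). MARS1, whose product also charges the initiator transfer RNA, had 261, 311 and 278 CPM against 540, 534 and 544 CPM (log2 fold-change 0.93, adjusted p = 0.00027, SE 0.12). Neither gene overlapped between the groups, and the treated libraries of MARS1 lay close together. MARS1 shares 355 exon bases with DDIT3 on the other strand, 5.05% of its exons, and the strand setting of the count is not given in the sources used here. DDIT3 itself had 11.8, 48.1 and 12.9 CPM in the controls and 87.1, 77.7 and 91.8 CPM at 30 µg/cm2.

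LARS1, the leucyl enzyme, which is also known as a leucine sensor for mTORC1, had 378, 288 and 390 CPM in the controls and 564, 513 and 576 CPM at 30 µg/cm2 (log2 fold-change 0.65, adjusted p = 0.00922, SE 0.14). EPRS1 had 379, 321 and 384 CPM against 577, 466 and 607 CPM (log2 fold-change 0.61, adjusted p = 0.0109, SE 0.13). Control 2 was the lowest library of both genes. Without it LARS1 fell below the fold limit at 0.52 and EPRS1 at 0.53, and EPRS1 also lost its call without the 30 µg/cm2 library of experiment 1 (0.56) or 3 (0.53).

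QARS1, the glutaminyl enzyme, had the lowest log2 fold-change of the tested members. It had 230, 294 and 254 CPM in the controls and 148, 253 and 154 CPM at 30 µg/cm2, where experiment 2 overlapped the controls and experiments 1 and 3 did not. The log2 fold-change was -0.49 (adjusted p = 0.137, SE 0.19). With the experiment number as a block in edgeR's quasi-likelihood test it was -0.52 (adjusted p = 0.00279, SE 0.11), inside the fold limit. Human mitochondria have no separate glutaminyl gene and make their glutaminyl transfer RNA through EARS2 and an amidotransferase. EARS2 had 86.4, 39.9 and 87.2 CPM in the controls and 83.2, 71.2 and 81.6 CPM at 30 µg/cm2, with the control of experiment 2 alone far from the rest.

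The scaffolds AIMP1, AIMP2 and EEF1E1 gave no call against the control, at log2 fold-changes of 0.41, 0.44 and 0.18, although the adjusted p of AIMP1 was 0.0451. Of 9 enzymes that finish or correct transfer RNA charging, among them the GatCAB subunits QRSL1, GATB and GATC and the methionyl-tRNA formyltransferase MTFMT, none was called. None of 4 tested cytosolic elongation factors and none of 9 mitochondrial translation factors was called.

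In the mitochondrial class the log2 fold-changes at 30 µg/cm2 ran from -0.26 for IARS2, the most abundant member per length, to 0.39 for PARS2, the prolyl enzyme. PARS2 had 10.7, 9.56 and 12.0 CPM in the controls and 14.1, 13.0 and 15.3 CPM at 30 µg/cm2, without overlap but with an adjusted p of 0.118 (SE 0.15). RARS2, the arginyl enzyme, was the other mitochondrial member whose groups did not overlap (log2 fold-change 0.28, adjusted p = 0.184, SE 0.12). With the experiment number as a block in edgeR's quasi-likelihood test, PARS2 was at 0.40 (adjusted p = 0.0197, SE 0.11). RARS2 was at 0.28 in that fit (adjusted p = 0.0327, SE 0.09), and both stayed inside the fold limit of 0.6. Without the block the 95% interval had its upper end below 0.6 for 12 of the 15 members. Its highest upper end was 1.06, for MARS2, whose SE of 0.36 was the largest of the class and was 0.15 with the experiment number as a block. The median SE was 0.16 in the mitochondrial and 0.14 in the cytosolic class.

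Of 13 members in which every library at 30 µg/cm2 was above every control, 11 were cytosolic and 2 mitochondrial, and in no member was every treated library below; 11.7% of all tested genes were higher in every treated library. When cytosolic and mitochondrial enzymes of the same amino acid were set side by side, the cytosolic log2 fold-change was the larger in 14 of 16 pairs. The median difference was 0.46, and it reached 1.32 for tryptophan and 1.17 for isoleucine. The exceptions were arginine, at -0.34, and valine, at -0.12. Where no synthetase was called, the cytosolic value was also the larger in most pairs. It was so in 11 of 16 pairs after a single dose of 1 µg/cm2 and in 13 of 16 after repeated exposure. The median differences there were smaller, at 0.08 and 0.13. EPRS1 enters for both glutamate and proline and FARS2 for both FARSA and FARSB, and the pairs were drawn up after the values were seen.

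**Figure D3:**
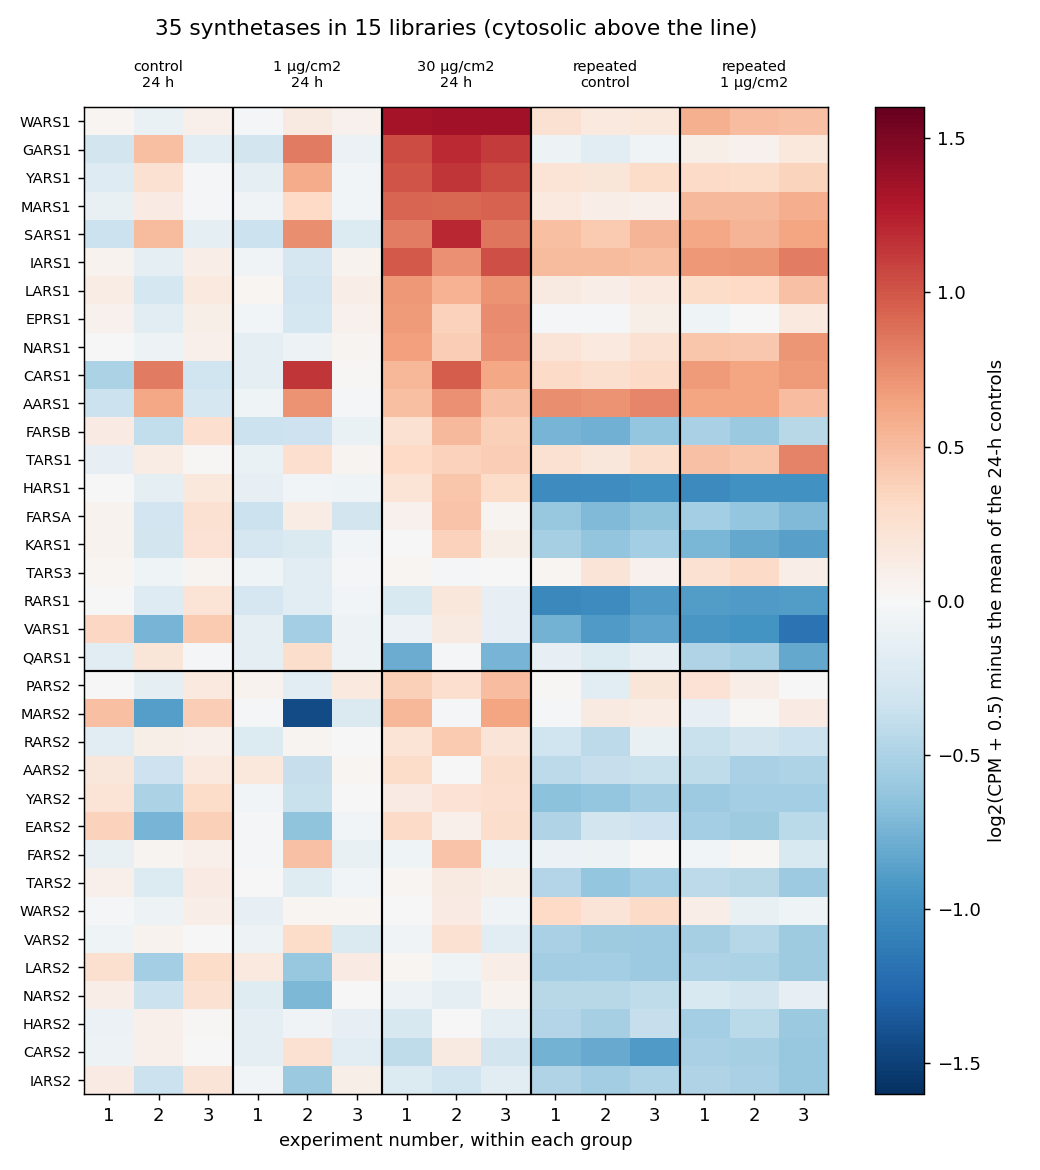
Log2(CPM + 0.5) of the 35 tested synthetases (rows; 20 cytosolic or dual above the line, 15 mitochondrial below) in 15 libraries (columns, by group and experiment number), minus the mean of the 24-h controls. The 30 µg/cm2 columns are red for the upper cytosolic rows, and both repeated groups are blue for most mitochondrial rows and for HARS1, RARS1 and VARS1.

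In the control, experiment 2 differed from the mean of experiments 1 and 3 by 1.25 on the log2 scale for CARS1, 0.92 for AARS1, 0.76 for SARS1 and 0.72 for GARS1, all higher. It was lower by more than 0.6 for VARS1 (-1.12) in the cytosolic class and for MARS2 (-1.36), EARS2 (-1.12), LARS2 (-0.83) and YARS2 (-0.76) in the mitochondrial class. At 30 µg/cm2 the same library difference was smaller in each of these 9 genes, from -0.63 for MARS2 to 0.38 for CARS1. CARS1, the cysteinyl enzyme, shows the pattern: 45.4, 115 and 51.9 CPM in the controls, and 94.2, 127 and 100 CPM at 30 µg/cm2. Its log2 fold-change of 0.60 was not called (adjusted p = 0.324, SE 0.34), and with the experiment number as a block it was 0.73 (adjusted p = 0.00278, SE 0.15).

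Without the 24-h libraries of experiment 2, 10 cytosolic members rose and 1 fell, and no mitochondrial member was called, where 19.1% of the 17950 genes tested in that fit were called, 1644 higher and 1786 lower. CARS1 (0.98, SE 0.09) and AARS1 (0.77, SE 0.08), the alanyl enzyme, joined those that rose, LARS1 dropped below the fold limit at 0.56, and QARS1 fell by 0.69 on the log2 scale (adjusted p = 4.87e-05, SE 0.10). The class medians were then 0.59 and -0.09. With the experiment number as a block and all libraries, 15.2% of tested genes and 9 cytosolic members were called, CARS1 among them and NARS1 not, at 0.598. WARS1, YARS1, IARS1 and MARS1 kept their call with any 1 library left out.

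Summed over members, cytosolic synthetase RNA per kb was 914, 1016 and 995 CPM in the 24-h controls, 855, 1115 and 935 at 1 µg/cm2 and 1384, 1506 and 1435 at 30 µg/cm2. Each library at 30 µg/cm2 was above the other 12 libraries of the study. The mitochondrial sum was 240, 191 and 255 CPM per kb in the 24-h controls and 224, 231 and 233 at 30 µg/cm2, which overlapped. The ratio of the sums was 4.35 ± 0.85 (SD, n = 3) in the control, 4.72 ± 1.17 at 1 µg/cm2 and 6.28 ± 0.21 at 30 µg/cm2. Experiment 2 had a ratio of 5.33 in the control and 6.06 at 1 µg/cm2, where experiments 1 and 3 had ratios from 3.81 to 4.15.

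**Figure D4:**
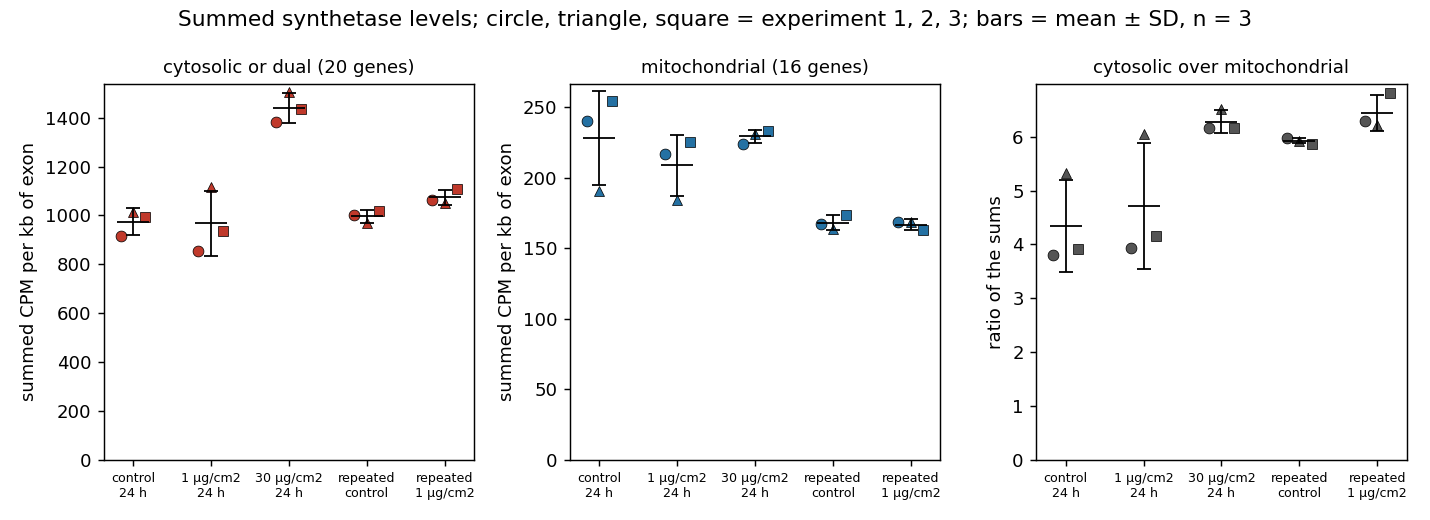
Summed TMM-scaled CPM per kb of exon of the cytosolic or dual members (left), of the mitochondrial members (middle) and their ratio (right), y axes from 0, in each library of the 5 groups. Circle, triangle and square are experiments 1, 2 and 3 of a protocol, and bars are mean ± SD (n = 3). The cytosolic sum is highest at 30 µg/cm2, from 1384 to 1506, and the mitochondrial sum is lowest in both repeated groups.

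After a single dose of 1 µg/cm2 for 24 h no synthetase was called. None reached an unadjusted p below 0.05 in edgeR's quasi-likelihood test either, where 534 of all tested genes did, and 0.0625% of genes were called. The log2 fold-changes ran from -0.58 for MARS2 (SE 0.36) to 0.33 for CARS1 (SE 0.34), with medians of -0.06 in the cytosolic and -0.08 in the mitochondrial class. The 95% intervals lay within 0.6 on both sides for 14 of 20 cytosolic and 12 of 15 mitochondrial members. WARS1 had 126, 142 and 135 CPM, within the range of the controls and just above it. With the block, with DESeq2 and without experiment 2, where 2.11% of genes were called, the count of called members was 0 as well.

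The direct contrast of the 2 concentrations shares its 30 µg/cm2 libraries with the contrast against the control. Against 1 µg/cm2, 9 cytosolic synthetases were higher at 30 µg/cm2 and none was lower, and no mitochondrial synthetase was called. Across all genes 7.84% were called and 3.62% were called higher. WARS1 again led, with a log2 fold-change of 1.28 (adjusted p = 4.14e-05, SE 0.10), followed by IARS1 at 1.00 (adjusted p = 0.000368, SE 0.13). FARSB, the beta subunit of the phenylalanyl enzyme, was called here (0.65, adjusted p = 0.0151, SE 0.15) and SARS1 was not (0.82, adjusted p = 0.0665, SE 0.27). With the block SARS1 was called, at 0.90 (adjusted p = 0.00015, SE 0.12). Of the scaffolds AIMP2 was called higher at 30 µg/cm2 than at 1 µg/cm2, at 0.68 (adjusted p = 0.0149, SE 0.16).

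The medians in this contrast were 0.52 in the cytosolic and 0.17 in the mitochondrial class. Every library at 30 µg/cm2 was above every library at 1 µg/cm2 for 18 members, 13 cytosolic and 5 mitochondrial, against 11.5% of all tested genes. With the block 15.6% of genes and 10 cytosolic members were called, and MARS2 was called as the 1 mitochondrial member, at 0.96 (adjusted p = 0.000515, SE 0.15). MARS2 had 15.1, 5.35 and 13.0 CPM at 1 µg/cm2 and 22.3, 14.9 and 24.0 CPM at 30 µg/cm2, so each experiment was higher at 30 µg/cm2 while the groups overlapped. Its 24-h controls had 21.7, 8.10 and 20.3 CPM. Without experiment 2, 17.3% of genes were called, and 10 cytosolic members were higher and 1 lower. MARS2 was also called in that fit, at 0.70 (SE 0.11), and QARS1 was lower at 30 µg/cm2 by 0.68 on the log2 scale (adjusted p = 6.42e-05). Leaving out single libraries ended the calls of GARS1 (adjusted p 0.058 to 0.152 in 5 of 6 fits) and FARSB (4 of 6), those of NARS1 without the 1 µg/cm2 library of experiment 1 or the 30 µg/cm2 library of experiment 3 (0.59 in each), and those of EPRS1 (0.59) and LARS1 (0.58) without the 1 µg/cm2 library of experiment 2.

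Repeated exposure to 1 µg/cm2 gave no called synthetase, with 0.227% of all genes called. In edgeR's quasi-likelihood test 6 members and 2102 genes had an unadjusted p below 0.05. With the block 773 genes were called and no member. The largest values were 0.43 for MARS1 (adjusted p = 0.149, SE 0.12) and -0.44 for QARS1 (adjusted p = 0.387, SE 0.19). With the block their adjusted p was 0.0145 and 0.0201, and both stayed inside the fold limit of 0.6.

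MARS1 had 314, 303 and 300 CPM in the repeated controls and 406, 404 and 425 CPM after repeated exposure. WARS1 had 153, 143 and 145 CPM against 192, 182 and 179 CPM, a log2 fold-change of 0.32 (adjusted p = 0.179, SE 0.09). QARS1 had 236, 221 and 232 CPM against 184, 178 and 147 CPM. In all 3 genes the groups did not overlap, and the spread within a group was small. WARS2, the mitochondrial tryptophanyl gene, had 24.8, 23.0 and 24.7 CPM against 21.3, 18.3 and 18.9 CPM (log2 fold-change -0.31, adjusted p = 0.287, SE 0.11).

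Such separation was common in this protocol. Every repeatedly exposed library was above every repeated control for 13 members, 11 cytosolic and 2 mitochondrial, against 21.3% of all tested genes. It was below for 5 members, 4 cytosolic and 1 mitochondrial, against 21.6% of genes. The median log2 fold-change was 0.12 in the cytosolic class (0.15, 0.12 and 0.08 in experiments 1 to 3) and -0.03 in the mitochondrial class. Beside the values after 30 µg/cm2 for 24 h, which come from other cultures and another control, MARS1 was at 0.43 against 0.93, NARS1 at 0.33 against 0.60, WARS1 at 0.32 against 1.34 and QARS1 at -0.44 against -0.49. TARS1 was alike in both, at 0.34 against 0.35, and WARS2 was at -0.31 against 0.03.

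The repeated response and the single 1 µg/cm2 response were compared by the difference of their log2 fold-changes. No gene was called, 0% of those tested, and 1245 genes and 2 members had an unadjusted p below 0.05 in edgeR's quasi-likelihood test. The 2 members were FARSB (difference 0.48, adjusted p = 0.698, SE 0.21) and NARS1 (0.39, adjusted p = 0.685, SE 0.17). With the block 181 genes were called and no member. Without the 24-h libraries of experiment 2 FARSB was called, at 0.61 (adjusted p = 0.00328, SE 0.12), the 1 member called where 9.84% of all genes were. The 95% intervals were wide, with the median SE at 0.20 in the cytosolic and 0.22 in the mitochondrial class.

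The controls of the 2 protocols were also compared. In the repeated control 5 cytosolic members (HARS1, RARS1, VARS1, FARSB and FARSA) and 3 mitochondrial members (CARS2, YARS2 and LARS2) were lower than in the 24-h control, and none was higher. Of all tested genes 21.9% were called and 10.8% were called lower. The median log2 fold-change was -0.46 in the mitochondrial and 0.11 in the cytosolic class. Plating density, days in culture, daily washes and the experiment itself cannot be told apart in this contrast.

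HARS1, the histidyl enzyme, had 165, 149 and 187 CPM in the 24-h controls and 82.9, 83.2 and 84.8 CPM in the repeated controls, a log2 fold-change of -1.0 (adjusted p = 2.52e-05, SE 0.10). RARS1 had 266, 232 and 311 CPM against 131, 133 and 142 CPM (-0.996, adjusted p = 0.000148, SE 0.13). Both groups of libraries were far apart in both genes. HARS1 and its mitochondrial neighbour HARS2 are transcribed away from each other. Their promoter windows share 184 bases, and 592 of their exon bases overlap on opposite strands. HARS1 also shares 952 exon bases with WDR55 on the other strand. In total 18.3% of the exon bases of HARS1 and 21.8% of those of HARS2 lie under other genes. The strand setting of the count is not given in the sources used here. HARS2 had a log2 fold-change of -0.46 (adjusted p = 0.00484, SE 0.10), inside the fold limit.

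CARS2, the mitochondrial cysteinyl enzyme, had 81.7, 91.7 and 86.0 CPM in the 24-h controls and 50.8, 49.1 and 46.0 CPM in the repeated controls (log2 fold-change -0.83, adjusted p = 0.00118, SE 0.15). Every repeated control was below every 24-h control for 14 members, 6 cytosolic and 8 mitochondrial, against 24.7% of all tested genes. It was above for 6 members, 5 cytosolic and 1 mitochondrial, against 27.6% of genes. The mitochondrial sum was 168 ± 5.13 CPM per kb in the repeated control and 167 ± 3.64 after repeated exposure, each library below all 24-h libraries, and the ratio of the class sums was 5.93 ± 0.05 and 6.45 ± 0.33. The call of LARS2 (-0.61, adjusted p = 0.0442) was lost in 5 of 6 fits that left out 1 library (adjusted p 0.104 to 0.144), with the exception of 24-h control 2, and that of YARS2 without 24-h control 1 (-0.596) or 3 (-0.55). FARSA also dropped inside the fold limit without 24-h control 3, at -0.57. Without the 24-h libraries of experiment 2, 3 cytosolic members were higher (AARS1 at 1.04, SARS1 at 0.72, CARS1 at 0.69), 6 were lower, and 7 mitochondrial members were lower, where 31% of the 17950 genes were called, 2895 higher and 2669 lower.

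The amino acid response list, 28 genes for the eIF2 kinases, their factors and known targets, gives the pathway beside the synthetases. At 30 µg/cm2 11 of 28 rose and none fell, against 3.82% of all tested genes called higher. The median log2 fold-change was 1.05. Under the block 18 of 28 rose, where 1296 of 17599 genes were called higher. SLC7A11, the cystine importer, rose by 2.93 on the log2 scale (adjusted p = 0.00229, SE 0.51), TRIB3, a pseudokinase, by 2.61 (SE 0.38) and PPP1R15A, which directs dephosphorylation of eIF2, by 2.45 (SE 0.24). XPOT, the exportin that carries transfer RNA out of the nucleus, rose by 1.05 (SE 0.13). The RNA of ATF4 itself, which is controlled mainly in translation, was not called (0.84, adjusted p = 0.0778, SE 0.28), and the 4 kinases were between -0.13 and 0.21.

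ASNS, asparagine synthetase, had 88.1, 435 and 103 CPM in the 24-h controls and 744, 953 and 806 CPM at 30 µg/cm2 (log2 fold-change 1.999, adjusted p = 0.0454, SE 0.59). Its control of experiment 2 was thus far above those of experiments 1 and 3, in the same library in which CARS1, AARS1, SARS1 and GARS1 were high. Without the 24-h libraries of experiment 2, 19 of the 28 genes rose at 30 µg/cm2 and none fell, where 1644 of 17950 genes rose. In the repeated controls ASNS had 653, 615 and 641 CPM and TRIB3 469, 430 and 413 CPM, where TRIB3 had 110, 203 and 125 CPM in the 24-h controls. Of the 28 genes 8 were called higher in the repeated control than in the 24-h control and none lower, against 11.1% of all tested genes called higher. Without the 24-h libraries of experiment 2 it was 18 of 28, where 2895 of 17950 genes were called higher.

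**Figure D5:**
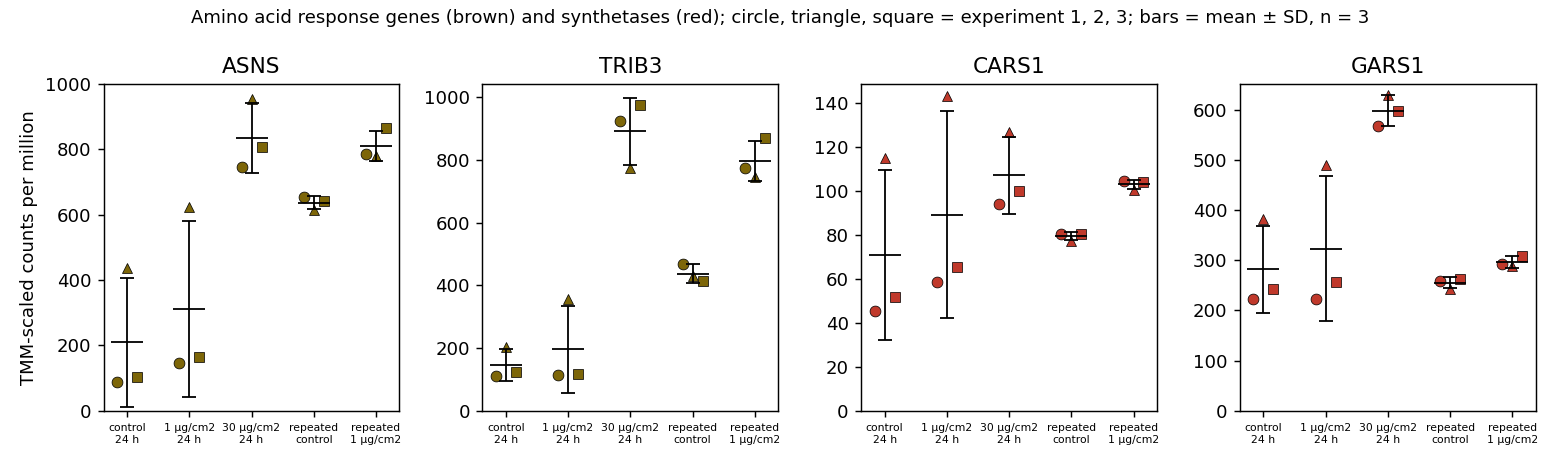
TMM-scaled CPM (y axis, from 0) of the amino acid response genes ASNS and TRIB3 (brown) and of the synthetases CARS1 and GARS1 (red) in every library of the 5 groups. Circle, triangle and square are experiments 1, 2 and 3 of a protocol, and bars are mean ± SD (n = 3). The 24-h control of experiment 2 is above those of experiments 1 and 3 in each panel, with ASNS at 435 CPM against 88.1 and 103.

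At 1 µg/cm2 for 24 h 1 gene of the list rose, SLC7A5, the light chain of a large neutral amino acid transporter (log2 fold-change 1.34, adjusted p = 0.000292, SE 0.13). It had 575, 616 and 598 CPM in the controls and 1684, 1260 and 1589 CPM at 1 µg/cm2, while no synthetase was called in the same libraries. With the block 2 of the 28 genes were called higher at 1 µg/cm2, where 44 of 17599 genes were. Without the 24-h libraries of experiment 2 it was 7 of the 28, where 199 of 17950 genes were called higher. After repeated exposure none of the 28 was called, or 1 higher with the block, where 282 of 17599 genes were called higher. Of 8 tested interferon-gamma targets, a group that WARS1 is also known to belong to, none rose at 30 µg/cm2 and 1 fell, GBP1, by 0.80 on the log2 scale (adjusted p = 0.00974, SE 0.17). With the block 3 of the 8 fell, where 1385 of 17599 genes were called lower.

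Of the 7 cytosolic members with a promoter window that rose at 30 µg/cm2, 4 held the CARE motif (GARS1, IARS1, MARS1 and NARS1). Of the 9 that were not called, 3 held it (CARS1, AARS1 and TARS1). LARS1 and YARS1 had no window. CARS1 and AARS1 were called without the 24-h libraries of experiment 2, and TARS1 had a log2 fold-change of 0.35 (adjusted p = 0.101, SE 0.13) with no overlap between groups. The 3 genes with windows that rose without the CARE motif were WARS1, SARS1 and EPRS1.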

How the data were processed

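RNA of BEAS-2B cells was sequenced as poly-A libraries in 15 samples of 5 groups. The authors deposited 1 table of raw read counts per gene with a gene length, made with STAR and featureCounts per the labels, which name hg19 as the build. The paper's methods name GRCh38, and all 36 members overlap their GRCh38 annotation, so coordinates are given as GRCh38. The annotation and the strand option are not given in the sources used here. The labels give 7 days of daily dosing, and the methods 1 exposure fewer with collection on day 7.

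Counts were fitted over all 15 libraries in edgeR 4.0.16 (R 4.3.3): filterByExpr, TMM, quasi-likelihood test, Benjamini-Hochberg adjustment over 17599 genes, with a call at adjusted p below 0.05 and a log2 fold-change of at least 0.6 in size. Intervals are 95% and come from the fit's SE, which rests on a common spread per gene over all groups of both protocols. Intervals and the floor of 3 counts cover error within this fit and counting error only. Depth ran from 21460981 to 34724765 counts per library, with a median of 29243177. DESeq2 1.42.0, other scalings and filters, single libraries left out and a replicate block were alternatives. The series' design text ties the replicate number to the experimental batch, and the numbers were used to pair the samples on that ground. Same-numbered libraries had r from 0.201 to 0.721 over 9 pairs at 24 h. Differently numbered libraries had r from -0.683 to 0.453 over 18 pairs at 24 h, so the ranges overlapped. The correlations at 24 h alone thus did not settle the pairing. In the repeated protocol r was from 0.121 to 0.181 over 3 same-numbered pairs. It was from -0.127 to -0.0341 over 6 differently numbered pairs, without overlap. The code was tested on simulated data. Members and lists were chosen with earlier results of these data known. Members were named in full where called in any contrast, with or without the block, or where largest in their class at 30 µg/cm2. The mitochondrial and cytosolic pairs and the promoter motifs were added later.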

Additional observations from a re-analysis of the deposited data

How the results depend on the processing

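The direction of every called member's fold-change was the same under all alternatives run. Of the values for single genes, 396 kept their side of the threshold, 64 lost a call and 12 gained one. Of the class counts and medians, 264 stayed and 16 moved. A count stayed when it was within a set factor, so that 6 calls against 9 stayed. Counts of 0 in both fits are among those that stayed. A median stayed when it shifted by less than the SD between experiments. When only the groups compared were fitted, 4 cytosolic members were called at 30 µg/cm2 against the control and 1 against 1 µg/cm2, with fewer samples behind the spread. The main fit shares a common spread per gene over all groups, and the protocols differed in spread. The SD of the cytosolic sum was 53.9 CPM per kb in the 24-h control and 25.7 in the repeated control. For the mitochondrial sum it was 33.5 and 5.13. The SE of the main fit may thus be too small for contrasts at 24 h and too large for the repeated one, which was not tested. In the contrast of 30 with 1 µg/cm2, 1 mitochondrial member was called with no filter, with the replicate block and without the 24-h libraries of experiment 2. Without these libraries 1 cytosolic member was called in the difference between repeated and single response, and 9 cytosolic and 7 mitochondrial members in the contrast of the controls, where 7 mitochondrial members were also called with no fold-change threshold. The cause was not tested. For the fits of only the groups compared, with no filter or with no fold-change threshold, the share of all genes called was not computed. A shift in synthetase calls there cannot be told apart from a shift over all genes.

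Leaving out 1 library at a time gave 6 to 9 cytosolic calls at 30 µg/cm2 against the control, 6 to 8 against 1 µg/cm2, and 1 to 7 mitochondrial calls between the controls (1 without 24-h control 3, 7 without 24-h control 2). The share of all genes called was not computed for these fits either. The cytosolic median ranged from 0.37 to 0.54 against the control and from 0.44 to 0.59 against 1 µg/cm2, and the mitochondrial median at 1 µg/cm2 from -0.17 to -0.012. The replicate block, which pairs libraries of 1 experiment, gave 9 cytosolic calls at 30 µg/cm2. SARS2 was too low to test, and its low count cannot be told apart from reads left unassigned.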
